A study of Bos taurus with 12 samples.

Results

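Transcripts of 9 genes of retinoid (vitamin A) metabolism were followed in the liver of newborn calves. They were LRAT, RDH10, RDH11, RDH16, DHRS3, ALDH1A1, ALDH1A2, CYP26A1 and RARB, chosen by name for their role, with earlier results of these data known. They were matched by gene ID and make up 9 of the 30336 genes in the count tables. All 9 passed the filter on low counts, which 13212 genes passed.

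Liver takes up dietary retinol, and its stellate cells store it as retinyl esters. Retinol is oxidised reversibly to retinal, and retinal irreversibly to retinoic acid, which binds nuclear receptors (RAR, paired with RXR) and regulates transcription. Retinoic acid is then cleared by cytochromes of the CYP26 family, whose liver member CYP26A1 is itself a retinoic acid-responsive gene.

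The 12 libraries are labelled as liver of 12 Holstein heifer calves, biopsied by puncture 4 d after birth. The dams of 6 calves ate a control diet (CON), and the dams of the other 6 ate it with ethyl-cellulose rumen-protected methionine (MET) during the 28 d before calving. The calves themselves received no methionine treatment and were managed alike after birth, and the question was whether the dam's methionine supply changed the calf's hepatic transcriptome. The 12 libraries held 8277789 to 10397604 counted reads, so that 3 reads, the floor used here, correspond to 0.289 to 0.362 CPM (counts scaled to a common library total). All ran on 1 lane. The first index of the barcode was the same in all CON libraries and differed from that of all MET libraries, so diet and index cannot be told apart.

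The libraries of CON replicates 1 and 4 were close to identical (chi-square per gene of 1.33, where counting noise alone gives about 1), and so were those of MET replicates 1 and 3 (1.24), whereas the other 64 pairs of libraries gave 25.1 to 132.9. Each near-identical pair was therefore counted as 1 sample, named CON1 and MET1 below, which left 5 samples per diet (CON1, CON2, CON3, CON5 and CON6, and MET1, MET2, MET4, MET5 and MET6). Means, SD and the values by sample refer to these 10 samples and are listed in that order. Differences were tested over the 12 libraries and again over the 10 samples, with edgeR's quasi-likelihood test and a false discovery rate (FDR) of at most 0.10 as the call. The biopsies are mixed tissue, so fewer cells of a type and less RNA per cell cannot be told apart.

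Of the 9 genes, 7 had lower and 2 (DHRS3 and CYP26A1) had higher fitted abundance in MET, whereas 50.4% of all genes were on the lower side. The median log2 fold change was -0.40 against -0.003 over all genes tested. The 9 genes were chosen with earlier results of these data known, so the comparisons with all genes describe them and are not a test of the set. Only ALDH1A1, the cytosolic enzyme that makes retinoic acid from retinal, was called over the 12 libraries, where 4.41% of all genes were called and 2.32% were called lower in MET. None of the 9 was called over the 10 samples, where edgeR called 0 of all genes (0%) and the lowest FDR of any gene was 0.156, while 16.3% of all genes had an unadjusted p of 0.05 or less. With DESeq2, 3 of the 9 were called over the 12 libraries (ALDH1A1, ALDH1A2 and RDH11, against 9.95% of all genes) and 1, ALDH1A1, over the 10 samples (against 4.83%). At an unadjusted p of at most 0.05, edgeR gave 4 genes in either fit, all lower in MET (ALDH1A1, ALDH1A2, RDH11 and RDH10). The background for that direction was 10.4% of all genes over the 12 libraries and 8.52% over the 10 samples. No gene of the 9 had diets that were fully separated over the 10 samples, whereas 3.71% of all genes did.

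**Figure D1:**
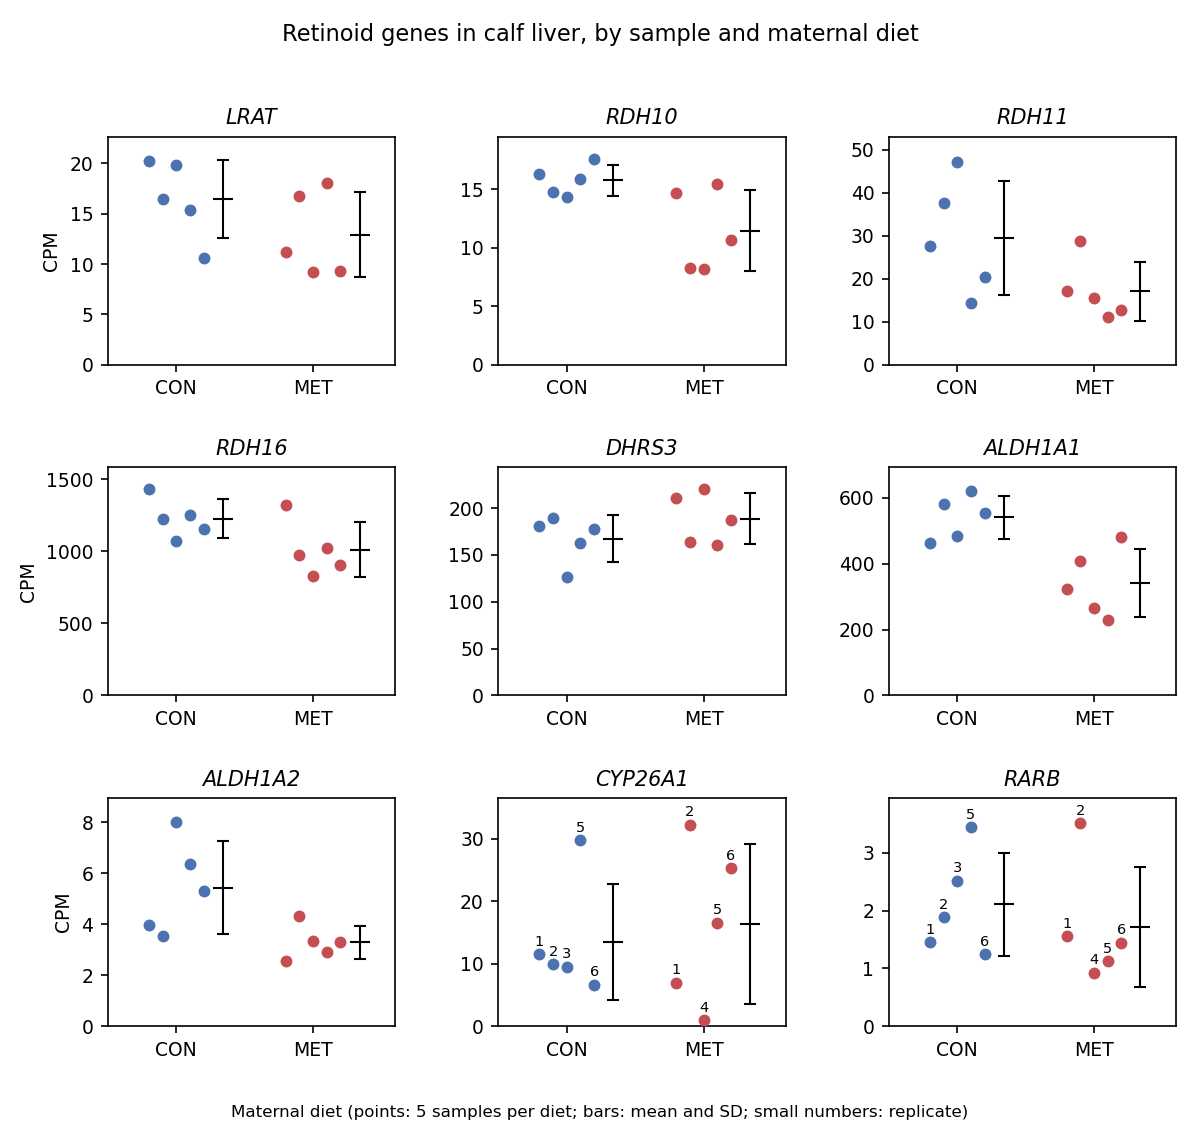
Abundance (CPM, vertical axes from 0) of the 9 genes in 5 CON and 5 MET samples, with the mean and SD beside the points; replicate 1 of each diet is the mean of a near-identical pair of libraries. ALDH1A1 has 4 of 5 MET samples below every CON sample, while CYP26A1 and RARB spread widely within both diets.

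The enzymes that make retinoic acid had the lowest p-values of the 9 genes. ALDH1A1 (gene ID 281615, chromosome 8, 49354207 to 49408166, minus strand, UMD 3.1.1) measured 463.3, 581.1, 483.2, 622.0 and 553.7 CPM in the CON samples. In the MET samples it measured 324.8, 409.0, 266.8, 230.5 and 481.6 CPM. Only MET6 reached the CON range, and the lowest value, in MET5, was below that of every other sample. The mean was 541 ± 66.6 CPM in CON and 343 ± 103 CPM in MET (SD, n = 5), or 63.4% of CON. Over the 12 libraries ALDH1A1 was downregulated by edgeR's test (log2 fold change -0.64, SE 0.17, 95% confidence interval -0.999 to -0.27, FDR = 0.0800). Over the 10 samples the estimate was -0.66 (SE 0.20) with an FDR of 0.183, so the call was lost while its size was nearly the same. By DESeq2 over the same 10 samples the FDR was 0.0479. When 1 library was left out in turn, the call held without MET replicate 2 or 6 (edgeR FDR of 0.0915 and 0.0687) and was lost without each of the other 10, with FDR of up to 0.133.

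Listed hepatocyte markers had lower fitted abundance in MET in 7 of 8 cases, against 50.4% of all genes. By edgeR 1 was called over the 12 libraries (APOB, lower, FDR = 0.0859, against 2.32% of all genes called lower) and none over the 10 samples (APOB FDR = 0.189). Over the 10 samples 2 of the 8 had an unadjusted p of at most 0.05, both lower, against 8.52% of all genes in that direction. The summed abundance of the hepatocyte markers ranged from 134900 to 180500 CPM in CON and from 108900 to 143500 CPM in MET. The part of hepatocyte content in the ALDH1A1 difference was not tested.

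ALDH1A2 (gene ID 535075, chromosome 10, 52278306 to 52403454, plus strand) encodes the second retinal dehydrogenase examined, the main retinoic acid-forming enzyme of the embryo. It was scarce, with 3.97, 3.52, 8.01, 6.36 and 5.29 CPM in CON and 2.54, 4.29, 3.34, 2.91 and 3.30 CPM in MET. Among MET samples 4 of 5 lay below every CON sample, with MET2 as the exception, and CON3 and CON5 had the highest values. The mean was 5.43 ± 1.82 CPM in CON and 3.28 ± 0.656 CPM in MET (SD, n = 5). The log2 fold change of -0.72 (SE 0.23) did not pass the threshold over the 12 libraries (edgeR FDR = 0.115) or over the 10 samples (-0.73, FDR = 0.208). It passed without CON replicate 2 (FDR = 0.0970).

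Among the enzymes that interconvert retinol and retinal, RDH11 showed a low fold change in MET with a wide spread. RDH11 (gene ID 505995, chromosome 10, 80133635 to 80145883, minus strand) is an NADPH-dependent retinal reductase of the endoplasmic reticulum. Its values were 27.6, 37.6, 47.2, 14.4 and 20.3 CPM in CON and 17.2, 28.7, 15.4, 11.2 and 12.8 CPM in MET. The diets overlapped, since CON5 lay below MET1, MET2 and MET4, and only MET5 and MET6 were below all CON samples. The mean was 29.4 ± 13.2 CPM in CON and 17.1 ± 6.91 CPM in MET (SD, n = 5), a difference that did not pass (log2 fold change -0.77, SE 0.28, edgeR FDR = 0.148 over the 12 libraries and 0.269 over the 10 samples). It passed without CON replicate 5 (FDR = 0.0966) or MET replicate 2 (FDR = 0.0946).

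RDH10 (gene ID 282852, chromosome 14, 38745909 to 38775000, plus strand) oxidises retinol to retinal, the step that limits retinoic acid formation in the embryo. In CON its values were tight, at 16.3, 14.7, 14.3, 15.8 and 17.5 CPM. In MET they were 14.7, 8.30, 8.17, 15.4 and 10.6 CPM. MET2, MET4 and MET6 lay below every CON sample, and MET1 and MET5 lay within the CON range. The means were 15.7 ± 1.29 and 11.4 ± 3.45 CPM (SD, n = 5), and the log2 fold change of -0.40 (SE 0.17) did not pass (edgeR FDR = 0.207 over the 12 libraries and 0.267 over the 10 samples).

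RDH16 (gene ID 519940, chromosome 5, 56862660 to 56870741, plus strand) is a liver dehydrogenase that oxidises retinol and some steroids. It measured 1434, 1221, 1068, 1253 and 1153 CPM in CON and 1323, 974, 828, 1026 and 905 CPM in MET. The MET samples other than MET1 lay below every CON sample, and MET1 was above all CON samples but CON1. The difference did not pass (log2 fold change -0.25, SE 0.14, 95% confidence interval -0.56 to 0.06, edgeR FDR = 0.354), also over the 10 samples (-0.28, FDR = 0.403).

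DHRS3 (gene ID 281482, chromosome 16, 41984485 to 42040601, plus strand) returns retinal to retinol and is known to be induced by retinoic acid. Its values were 181.5, 189.2, 126.2, 163.1 and 177.8 CPM in CON and 211.0, 164.0, 220.8, 161.2 and 187.6 CPM in MET. MET1 and MET4 were above every CON sample, and the other MET samples lay within the CON range. The log2 fold change of 0.18 (SE 0.12, 95% confidence interval -0.09 to 0.45) did not pass (edgeR FDR = 0.435 over the 12 libraries and 0.582 over the 10 samples). The estimate was 0.11 without CON replicate 3.

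LRAT (gene ID 281285, chromosome 17, 2650460 to 2657106, minus strand) forms the retinyl esters stored in stellate cells. It measured 20.2, 16.5, 19.8, 15.3 and 10.6 CPM in CON and 11.2, 16.8, 9.21, 18.0 and 9.28 CPM in MET. The ranges overlapped over most of their length, and only MET4 and MET6 were below all CON samples. The means were 16.5 ± 3.90 and 12.9 ± 4.21 CPM (SD, n = 5), and the log2 fold change of -0.44 (SE 0.21, 95% confidence interval -0.88 to 0.01) did not pass (edgeR FDR = 0.253 over the 12 libraries and 0.463 over the 10 samples). Among stellate cell markers 15 of the 18 tested had lower fitted abundance in MET, against 50.4% of all genes. By edgeR 1 was called over the 12 libraries (HGF, lower, FDR = 0.0995, against 2.32% of all genes called lower) and none over the 10 samples (HGF FDR = 0.188). Over the 10 samples 2 of the 18 had an unadjusted p of at most 0.05, both lower, against 8.52% of all genes in that direction. The summed abundance of the stellate cell markers was 1109 to 1426 CPM in CON and 839 to 1452 CPM in MET, and GFAP had no reads. The part of stellate cell content in the LRAT values was not tested.

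**Figure D2:**
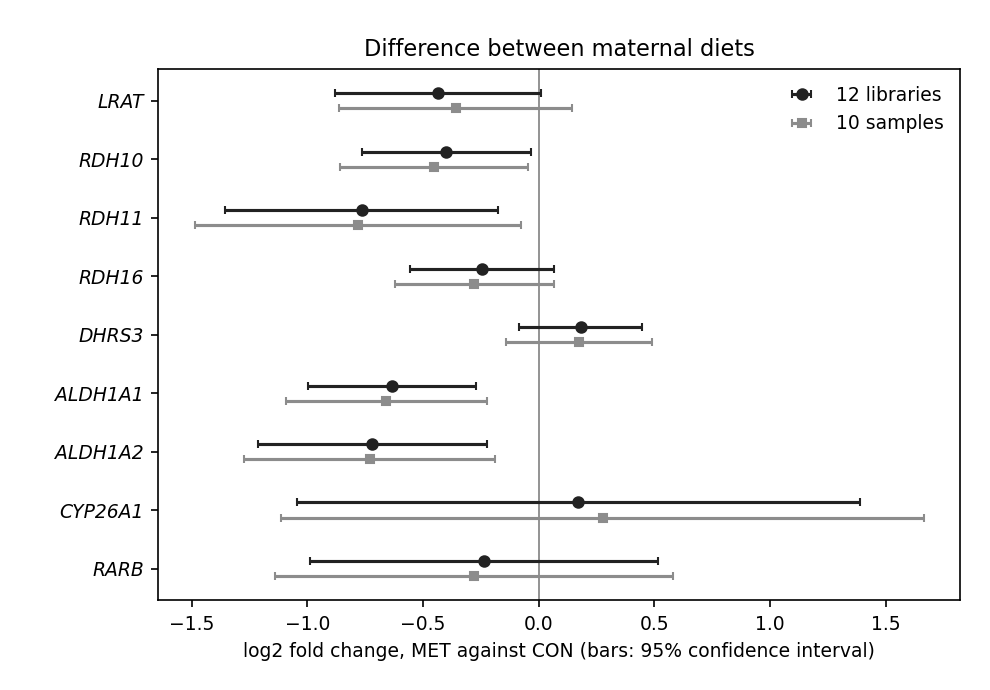
Log2 fold change of MET against CON for the 9 genes (horizontal axis), with 95% confidence intervals, over the 12 libraries (circles) and the 10 samples (squares). The intervals of RDH10, RDH11, ALDH1A1 and ALDH1A2 lie below 0 in both fits, and that of CYP26A1 is the widest.

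CYP26A1 (gene ID 539047, chromosome 26, 14460222 to 14463796, plus strand), which hydroxylates retinoic acid for disposal, had the widest spread of the 9 genes, within both diets. Its values were 11.5, 9.93, 9.49, 29.7 and 6.64 CPM in CON and 6.94, 32.2, 0.921, 16.6 and 25.2 CPM in MET. The highest sample, MET2, exceeded the lowest, MET4, by 35.0-fold, and both were from the same diet. MET4 held 8 reads of CYP26A1, above the floor of 3 reads. The mean was 13.5 ± 9.25 CPM in CON and 16.4 ± 12.8 CPM in MET (SD, n = 5). The log2 fold change of 0.17 (SE 0.57) had a 95% confidence interval of -1.05 to 1.39 and did not pass (edgeR FDR = 0.900), and over the 10 samples the estimate was 0.28 (FDR = 0.867). Its sign depended on the processing, since it was -0.22 without MET replicate 2, -0.05 without MET replicate 6 and -0.29 with limma voom. The near-identical CON libraries 1 and 4 held 127 and 80 CYP26A1 reads, a difference with an exact binomial p of 0.00341 (0.0614 adjusted over the 18 comparisons of the 9 genes in the 2 pairs).

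RARB (gene ID 616895, chromosome 27, 40131405 to 40164675, minus strand), a retinoic acid receptor whose own gene responds to the acid, was scarce, with 8 to 36 reads per library. It measured 1.46, 1.89, 2.52, 3.44 and 1.24 CPM in CON and 1.55, 3.51, 0.921, 1.12 and 1.44 CPM in MET. The ranges overlapped, with CON5 and MET2 highest. The log2 fold change was -0.24 (SE 0.35, 95% confidence interval -0.99 to 0.51, edgeR FDR = 0.741) over the 12 libraries and -0.28 (FDR = 0.762) over the 10 samples. The estimate was -0.009 without CON replicate 5 and -0.59 without MET replicate 2.

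Levels of different genes were compared as CPM per kb of exon. RDH16 was the most abundant of the 9 at 347 ± 59.6 CPM per kb (SD, n = 10), followed by ALDH1A1 at 215 ± 64.5 and DHRS3 at 92.7 ± 14.0 CPM per kb. These 3 kept this order in all 10 samples and ranked above 94.9% of the genes tested or higher. RDH10 (10.4 ± 2.57 CPM per kb), CYP26A1 (8.55 ± 6.11), RDH11 (7.54 ± 3.85) and LRAT (6.09 ± 1.77) formed a middle group. Within it RDH10 exceeded CYP26A1 in 7 of 10 samples, CYP26A1 exceeded RDH11 in 4 and RDH11 exceeded LRAT in 8, so these neighbours did not differ beyond their spread. RARB (1.45 ± 0.711 CPM per kb) and ALDH1A2 (1.22 ± 0.482) were lowest, with RARB above ALDH1A2 in 6 of 10 samples. The coefficient of variation over the 10 samples was 15.1% for DHRS3 and 17.2% for RDH16, and 71.4% for CYP26A1.

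**Figure D3:**
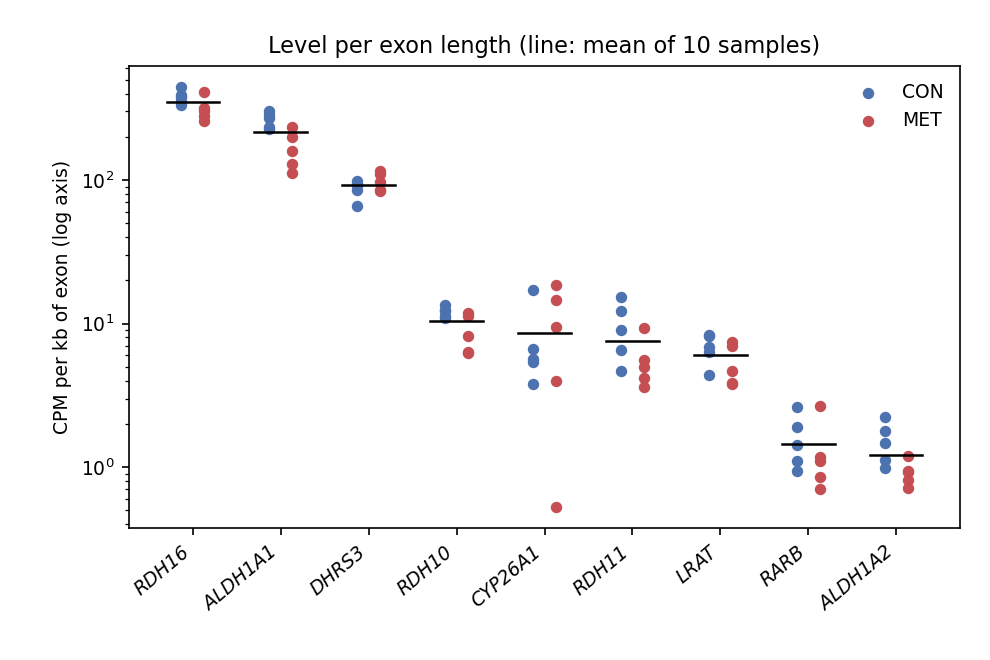
Level of each gene in CPM per kb of exon (log axis) in 5 CON and 5 MET samples, ordered by the mean over 10 samples (line). RDH16, ALDH1A1 and DHRS3 stand above the other 6 genes in all samples, and CYP26A1 spans the widest range.

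Pairs of the 9 genes were correlated over the 10 samples on log2 CPM. None of the 36 pairs passed an adjusted p of 0.10 by permutation of Pearson's r or of Spearman's rho, and 4 reached an unadjusted p of 0.05 for Pearson's r. The largest r joined RDH10 and RDH16 (r = 0.78, permutation p = 0.00682, adjusted 0.188, with rho = 0.72 and permutation p = 0.0237). Without MET2 and MET4, the samples farthest from the median of RDH10, that r was 0.65. DHRS3 and ALDH1A2 had a negative r (r = -0.76, permutation p = 0.0104, adjusted 0.188, with rho = -0.58 and permutation p = 0.0897), with r = -0.56 without CON3 and MET4. LRAT and DHRS3 had one as well (r = -0.69, permutation p = 0.0219, adjusted 0.263, with rho = -0.62 and permutation p = 0.0603), with r = -0.58 without MET4 and MET6. CYP26A1 and RARB, both retinoic acid-responsive, gave r = 0.66 (permutation p = 0.0314, adjusted 0.282) and rho = 0.56 (permutation p = 0.0948), and r was 0.36 without MET2 and MET4. DHRS3, also known to be induced by retinoic acid, had a negative r with RARB (r = -0.56, permutation p = 0.0895, adjusted 0.433). Its r with CYP26A1 was negative as well (r = -0.50, permutation p = 0.144, adjusted 0.462).

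The rest of the pathway was taken from lists of 73 other retinoid genes, of which 43 could be tested. Fitted abundance in MET was higher for 18 and lower for 25, with a median log2 fold change of -0.04. By edgeR 1 was called over the 12 libraries, lower in MET, which is 2.33% of the 43 against 2.32% of all genes called lower and 4.41% called in either direction, and 0 were called over the 10 samples. At an unadjusted p of at most 0.05 there were 8 by edgeR over the 12 libraries, all lower in MET. They were 18.6% of the 43, against 10.4% of all genes in that direction and 20.5% in either direction. Over the 10 samples there were 5 of the 43 (11.6%), all lower in MET, against 8.52% of all genes in that direction and 16.3% in either direction. The called gene was HSD17B6 (gene ID 533086), a retinol and sterol dehydrogenase whose gene lies on chromosome 5 as RDH16 does. HSD17B6 measured 1260 ± 169 CPM in CON and 864 ± 121 CPM in MET (SD, n = 5), with all 5 MET samples below every CON sample. Its log2 fold change was -0.52 (SE 0.13, edgeR FDR = 0.0724) over the 12 libraries and -0.54 (FDR = 0.175) over the 10 samples. By DESeq2 the FDR of HSD17B6 was 0.00285 over the 12 libraries and 0.0133 over the 10 samples. The edgeR call was also lost without CON replicate 1, 4 or 5 and without MET replicate 2, 4, 5 or 6 (FDR of 0.103 to 0.135).

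By role, 4 of 6 genes of ester storage and hydrolysis, 2 of 5 of binding and transport, 7 of 11 of retinol and retinal conversion and 3 of 3 of other acid synthesis had lower fitted abundance in MET, as did 5 of 10 receptors and cofactors and 4 of 8 response genes. Among the lists with tested genes, the most abundant gene by mean CPM per kb over the 10 samples of both diets did not pass, apart from HSD17B6. CES1, a carboxylesterase that can hydrolyse retinyl esters, had a log2 fold change of -0.30 (edgeR FDR = 0.536), which was -0.60 (FDR = 0.135) without MET replicate 6 and -0.19 without MET replicate 4. TTR, the plasma partner of retinol-binding protein, had 0.07 (edgeR FDR = 0.906) over the 12 libraries and -0.02 over the 10 samples. RXRA, the common partner of the RAR receptors, had 0.11 (edgeR FDR = 0.657), with 0.005 without MET replicate 6 and 0.16 without MET replicate 5. Once the trend with gene length was removed, RXRA had 0.20 over the 12 libraries and 0.21 over the 10 samples. ALDH8A1, a dehydrogenase of 9-cis-retinal, had -0.08 (edgeR FDR = 0.785), with -0.02 without CON replicate 2 and -0.16 without CON replicate 6. RARRES2 (chemerin) had 0.10 (edgeR FDR = 0.766), with 0.011 without CON replicate 3, 0.0097 without MET replicate 6, 0.17 without CON replicate 1, 0.16 without CON replicate 4 or MET replicate 4, and -0.02 once the trend with gene length was removed. The other CYP26 genes were nearly without signal, with 12 reads of CYP26B1 and 0 of CYP26C1 over the 12 libraries, so CYP26A1 was the member of that family measured in this tissue.

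**Figure D4:**
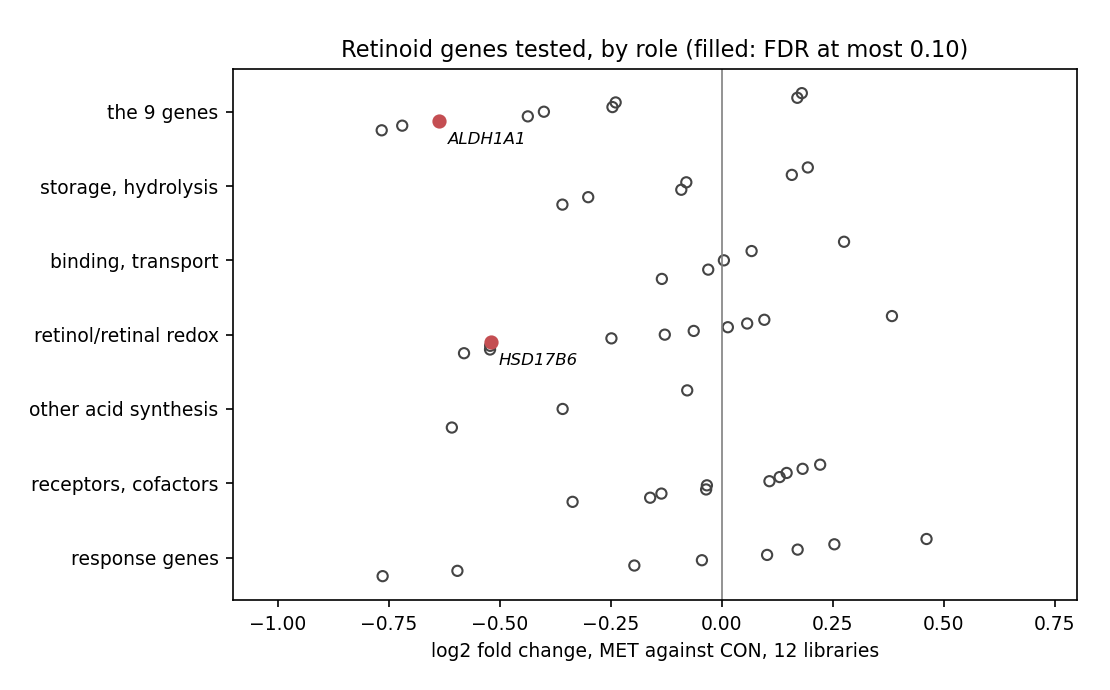
Log2 fold change of MET against CON over the 12 libraries (horizontal axis) for the 9 genes and the 43 other retinoid genes tested, 1 point per gene, by role; filled points have an FDR of at most 0.10. ALDH1A1 and HSD17B6 are the 2 filled points, both below 0.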

How the data were processed

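Per the labels and the study's methods, single-end reads of 101 cycles from a stranded library kit were trimmed with Trimmomatic 0.33 and aligned with STAR 2.5.3a to UMD 3.1.1. The authors deposited raw counts of reads per gene from featureCounts (Subread 1.5.2, stranded, without multi-mapping reads or reads that overlapped several genes), and nothing was normalised. STAR and Subread versions are those of the submitters' processing notes. Gene symbols came from a RefSeq table of ARS-UCD2.0 (25105 of 30336 IDs matched). Coordinates are those of the count tables.

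CPM were computed after TMM scaling with edgeR 4.0.16 (R 4.3.3). The default filter of edgeR was applied (minimum count 10, minimum total count 15), and the genes left were tested with the quasi-likelihood test on diet alone, with Benjamini-Hochberg adjustment over all 13212 genes (13242 with near-identical libraries summed). DESeq2 1.42.0, limma 3.58.1 and other scalings and filters were alternatives. The code was tested on simulated counts. The 2 near-identical pairs of libraries carry labels of different calves, and each was counted as 1 sample. Floors cover counting error only, since the reads carry no molecular identifiers.

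The 9 genes and the lists were chosen with earlier results of these data known. Named genes were the 9, any other listed retinoid gene called over 12 libraries, the most abundant gene of each list, and for each of the 9 the gene with the highest Pearson r on log2 CPM (prior count 2).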

Additional observations from a re-analysis of the deposited data

Results flagged for a closer look

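Of the 18 groups of 5 samples (9 genes in 2 diets), 2 held a sample that stood apart by Dixon's criterion at the 95% level, and chance alone flags about 1 in 20 such groups. CYP26A1 in CON5 was 29.7 CPM, whereas the other CON samples were between 6.64 and 11.5 CPM. RARB in MET2 was 3.51 CPM, whereas the other MET samples were between 0.921 and 1.55 CPM.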

How the results depend on the processing

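ALDH1A1 was lower in MET under every alternative run, with a log2 fold change of -0.67 to -0.59 over 14 alternatives (FDR of 0.0118 to 0.235, at most 0.10 in 7) and of -0.76 to -0.55 when 1 library was left out. The 583 genes called became 0 with near-identical libraries summed, 107 by library size only, 374 without the 10 most counted genes in the library size, 1314 with DESeq2, 238 without a filter, 247 with the trend with gene length removed, and 0 with that trend removed and near-identical libraries summed, an alternative chosen after seeing the data. Leaving out 1 library gave 26 (without CON replicate 1) to 565, with 35 without CON replicate 4. The count among the 9 genes was 0 under all of these but DESeq2, which gave 3, and was 0 to 2 when 1 library was left out. Among the other retinoid genes it was 0 with near-identical libraries summed, by library size only, without a filter and with the length trend removed on summed libraries, 4 with DESeq2, and 0 to 2 when 1 library was left out. DESeq2 with near-identical libraries summed called 639 genes, with 1 of the 9 among them. RLE and upper quartile scaling, robust estimation, limma voom and a filter on CPM called 522 to 666 genes. Each of these called 1 of the 9. The cause of the differences between alternatives was not tested.

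CYP26A1 turned to -0.29 with limma voom and ranged from -0.22 to 0.59 when 1 library was left out. TTR turned to -0.024 with near-identical libraries summed, -0.022 with DESeq2 on them, -0.11 with the length trend removed and -0.22 with both, and ranged from -0.075 to 0.24 when 1 library was left out. RARRES2 turned to -0.016 with the length trend removed. The other 8 of the 9 genes kept their direction under every alternative that gave them a value, and RARB, which DESeq2 gave no adjusted p on summed libraries, was not counted there. With all 12 libraries, in which near-identical libraries count separately, 2 pairs of the 9 genes (RDH10 with RDH16, and DHRS3 with ALDH1A2) passed the correlation threshold, against 0 over 10 samples. No member was below the filter, so the exact permutation test planned for such genes was not needed.

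Replicate numbers were shared by the diets. Same-numbered libraries deviated together with r from -0.190 to 0.148, the highest for replicate 1. These r showed no pairing common to the replicates, but so few values cannot exclude it. With the replicate block 6 genes were called, 0 of the 9 and 0 of the other retinoid genes, and the CYP26A1 estimate was -0.16. Of the 9 genes RARB had the fewest reads, with 8 to 36 reads per library, and CYP26A1 also fell to 8 reads in 1 library.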

Other observations

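For each of the 9 genes, the most similar gene over the 10 samples was sought among the 13203 other genes tested, by Pearson's r on log2 CPM, as a description without a test; the values of all genes share libraries and depth, and the highest of many r is large by construction. RDH11 was most like ACSS2, the cytosolic acetyl-CoA synthetase (r = 0.97), and ALDH1A1 was most like EHHADH, a peroxisomal enzyme of fatty acid oxidation (r = 0.95). ALDH1A2 was most like ADGRL4, an adhesion receptor of endothelial cells (r = 0.96). DHRS3 was most like PSKH1 (r = 0.98), RDH16 most like PLXNA4 (r = 0.95), CYP26A1 most like PLD2 (r = 0.95) and LRAT most like LOC101906451 (r = 0.92). RDH10 was most like the MET proto-oncogene, the receptor of hepatocyte growth factor (r = 0.91, with rho = 0.66), and RARB most like an unnamed gene with ID 101904864 (r = 0.92).

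Markers of other cell types are given for the genes tested, beside 50.4% of all genes with lower fitted abundance in MET and 4.41% called by edgeR in either direction over the 12 libraries. None of these markers was called by edgeR over the 10 samples, where 3 Kupffer cell and 1 cholangiocyte marker had an unadjusted p of at most 0.05, against 16.3% of all genes in either direction. Kupffer cell markers had higher fitted abundance in MET in 8 of 8 cases, with C1QB and C1QC called over the 12 libraries (FDR over the 10 samples of 0.214 and 0.175), and a summed abundance of 1318 to 1749 CPM in CON and 1553 to 2068 CPM in MET. Endothelial markers were higher in 4 and lower in 3 of 7 cases with none called (sums of 296 to 485 CPM in CON, 267 to 492 CPM in MET). Of 4 cholangiocyte markers, 3 had lower fitted abundance in MET and CFTR was called over the 12 libraries (FDR = 0.195 over the 10 samples) (sums of 50.8 to 78.1 CPM in CON, 30.6 to 67.8 CPM in MET). Summed erythroid markers ranged from 7.64 to 964 CPM in CON and from 57.4 to 461 CPM in MET, and leukocyte markers from 24.8 to 50.2 CPM in CON and from 42.2 to 51.5 CPM in MET, with none called among the 2 erythroid and 3 leukocyte markers tested.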
